A study of Mus musculus with 6 samples.

Results

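To describe oxidative phosphorylation in livers of tumor-bearing mice, the genes that encode the 5 complexes of the mitochondrial inner membrane and cytochrome c were taken from the raw count table by their names. The rule took the nuclear subunit genes of complex I (Nduf), complex II (Sdh), complex III (Uqcr and Cyc1), complex IV (Cox4 to Cox8) and complex V (Atp5), Cycs, and the 13 protein genes of the mitochondrial genome. It found 108 of the 20140 genes listed. Of these, 85 were nuclear genes, 10 were nuclear pseudogenes by their names or by the RefSeq gene type, and 13 were mitochondrial. All 108 passed the filter on low counts when it was applied over the 6 livers together. Ndufa4l2 and Cox4i2 did not pass when sham and PMN livers were filtered alone, nor did Cox4i2 when metastasis and PMN livers were, and their values in PMN livers rest on at most 15 counts a liver in these 2 groups. The rule used no measured value. Ndufa4 and Ndufa4l2 carry complex I names but were counted with complex IV, to which NDUFA4 belongs.

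Oxidative phosphorylation passes electrons from NADH (through complex I) and succinate (through complex II) to ubiquinone, complex III, cytochrome c and finally oxygen at complex IV, and complex V uses the resulting proton gradient to make ATP. All complexes except complex II combine subunits encoded in the nucleus with core subunits encoded in the mitochondrial genome. Hepatocytes are rich in mitochondria and depend on this pathway for urea synthesis, gluconeogenesis and fatty acid oxidation.

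The study asked how a colorectal tumor changes the liver, and sequenced polyadenylated RNA of whole liver from 3 groups of 2 mice on day 21. Sham surgery with PBS and no tumor cells served as control. The premetastatic niche (PMN) group, labelled intra-C, carried CT26 tumors implanted in the cecum. The metastasis group, labelled intra-S, had CT26 cells injected into the spleen, whose blood drains to the liver. The labels do not spell out intra-C and intra-S, so both names were read from the methods of the study. The methods give an age of 6 to 10 weeks over all tumor models and more than 1 strain, and the schemes of both routes show BALB/c, but the strain of the sequenced mice is not stated. CT26 is a mouse colon carcinoma line of BALB/c origin, and the groups differ both in disease stage and in the route of the cells. The labels describe the material as all liver cells, and a metastasis liver may therefore hold tumor cells.

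The livers had 32838321 to 43368309 counts each. Hepatocyte markers such as Alb and Ttr summed to between 111646 and 189045 CPM (counts on library totals scaled by TMM to a common size), so that the tissue label was borne out. Only 2 of the muscle markers are among the counted genes and summed to at most 0.350 CPM, while others such as Acta1 and Ckm are not listed. Other cell types moved with the groups. For the counts that follow, 4.92% of all genes were called higher and 2.38% lower in PMN livers, and 6.78% and 3.95% in metastasis livers. Both livers lay above both sham livers for 34.4% of all genes in PMN and 30.4% in metastasis livers. A single call in a short list cannot be told from these shares. All 10 neutrophil markers were higher in both tumor groups (4.02 and 5.34 CPM summed in sham, 276 and 579 in PMN, 996 and 405 in metastasis livers), as were 8 of 10 monocyte and macrophage markers (154 and 157, 675 and 890, and 560 and 850 CPM summed). All 8 endothelial markers lay above both sham livers in both tumor groups and 4 were called in each (87.4 and 97.8, 301 and 267, and 399 and 221 CPM summed). Of 8 erythroid markers 7 were higher in metastasis and none in PMN livers (229 and 411, 409 and 259, and 1729 and 1203 CPM summed). Of 9 stellate cell and fibroblast markers 3 were higher in metastasis and none in PMN livers, and of 6 cholangiocyte and epithelial markers 1 was higher in metastasis livers. No T and NK cell or B cell marker was called. Of the adipose markers Fabp4 and Cidea, 1 was higher in PMN and both in metastasis livers (4.71 and 3.85, 15.97 and 14.7, and 147 and 31.9 CPM summed). Adipoq, Plin1, Lep and Ucp1 of the same list are not among the counted genes, so that these 2 genes alone do not show that adipose cells moved. Of the 10 hepatocyte markers, 1 was higher and none lower in each tumor group. Their part in the results that follow was not tested, and in whole tissue fewer cells of a type and less RNA per cell cannot be told apart. Counts were also more concentrated in the tumor groups, where the top 100 genes held 54.4% to 57.7% of a library, against 42.0% and 41.7% in sham livers. The p-values measure the spread between these livers only.

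The nuclear genes were lower in PMN livers as a group. In the sham livers the 85 nuclear genes summed to 31390 and 32195 TPM (levels corrected for transcript length and depth). The PMN livers reached 16029 and 15234 TPM, and the metastasis livers 19278 and 19364 TPM. The sums of the 3 groups did not overlap. Relative to the mean of the sham livers, the median nuclear gene stood at -0.77 and -0.91 (log2 of CPM) in PMN livers. It stood at -0.42 and -0.51 in metastasis livers. The sham livers themselves lay within 0.0111 of their mean on this scale. Every complex took part, as the plot of the members by liver shows.

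**Figure D1:**
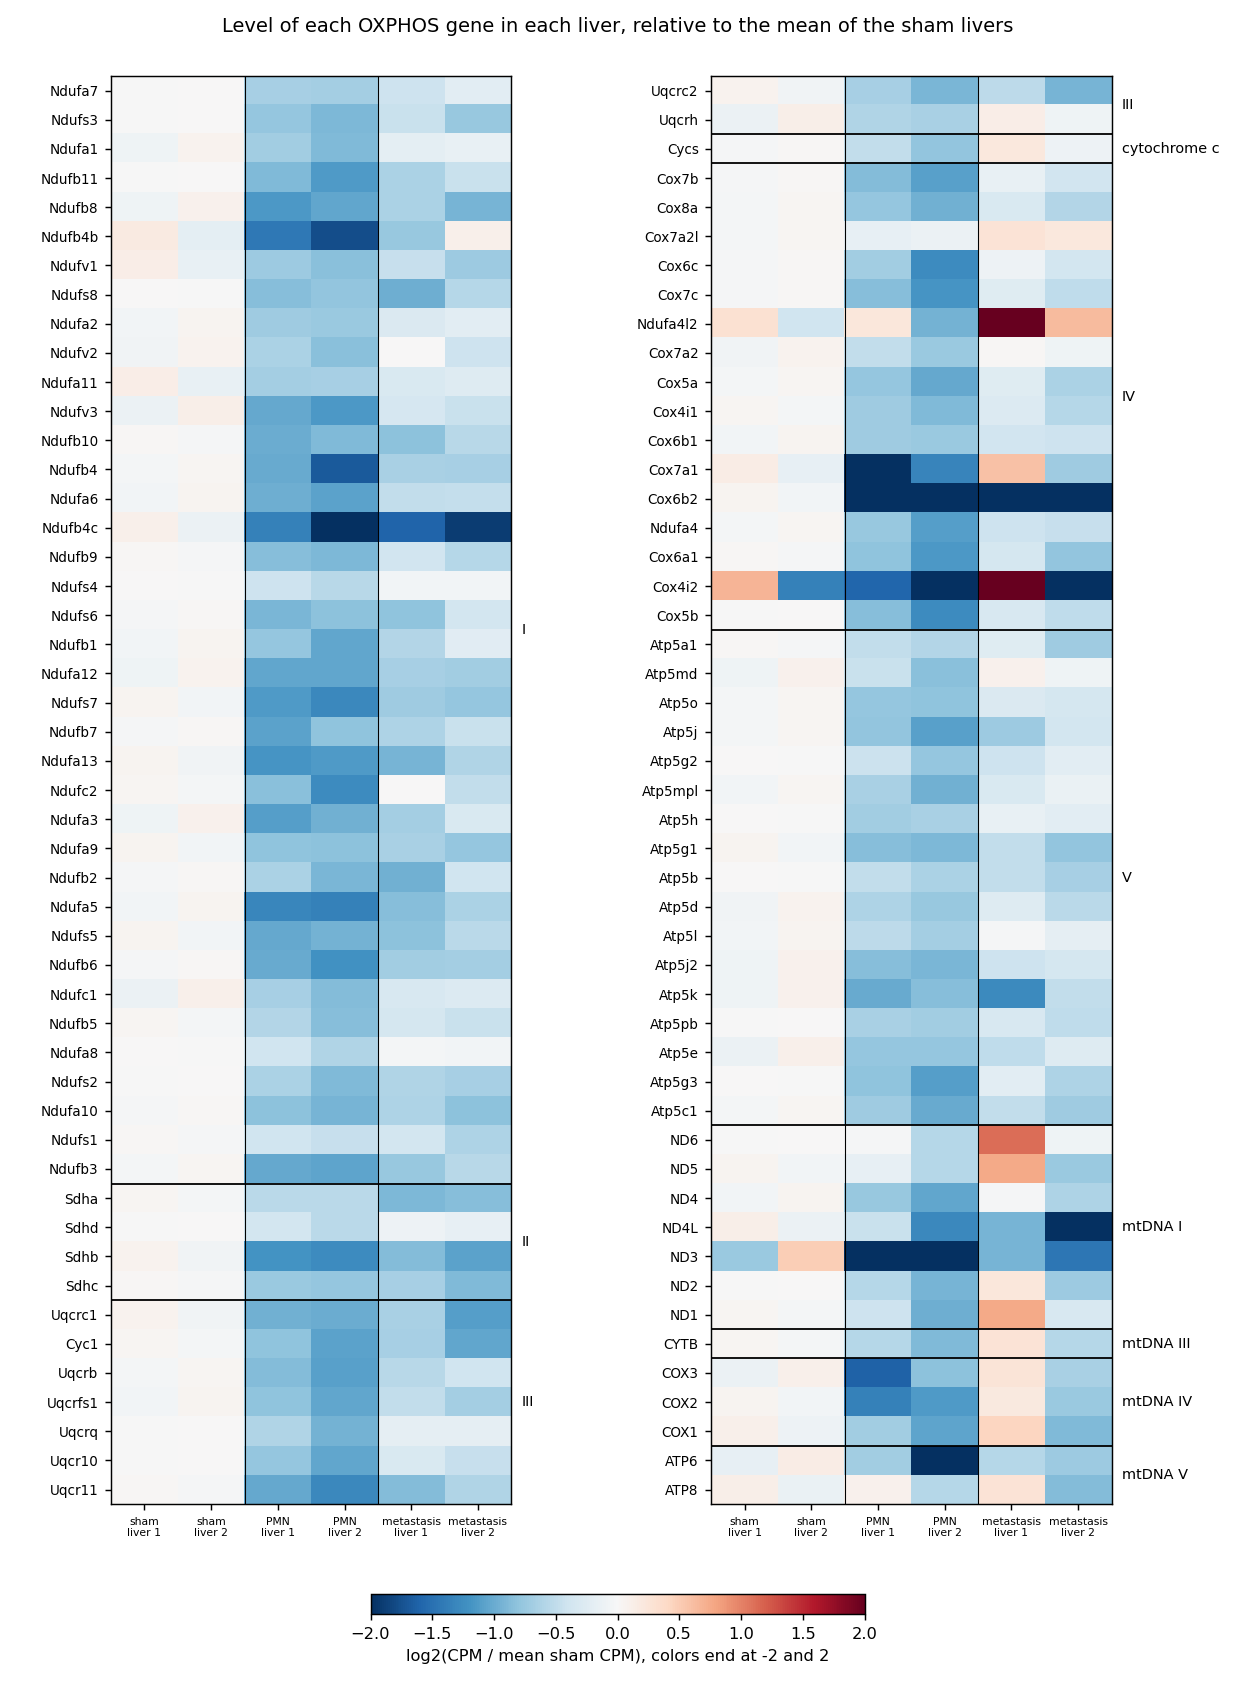
Heat map of log2(CPM / mean sham CPM) for each of the 85 nuclear and 13 mitochondrial genes (vertical axis, grouped by complex) in each of the 6 livers (horizontal axis), with blue for lower and red for higher than sham. Nuclear genes are blue in nearly every PMN liver cell of the map and paler in metastasis livers, while mitochondrial genes in metastasis liver 1 are mostly red; a count of 0 (Cox4i2) is drawn at the gene's lowest value above 0.

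Compared with sham livers, 29 of the 85 nuclear genes were lower and none was higher in PMN livers (edgeR's quasi-likelihood test, Benjamini-Hochberg adjusted p under 0.05), which is 34.1% of them, while 2.38% of all 16370 genes tested were called lower and 4.92% higher. At an unadjusted p under 0.05, 79 of 85 were lower, against 11.8% of all genes. All 85 fitted log2 fold changes were below 0, as for 49.4% of all genes, and for 84 of 85 both PMN livers lay below both sham livers, as for 34% of all genes (Ndufa4l2 was the exception). Without Ndufa4l2 and Cox4i2 these counts were 83 of 83. The median log2 fold change was -0.87, a level 45.4% lower, against 0.01 over all genes. The fold changes ran from -2.58 (Cox6b2) to -0.14 (Cox7a2l).

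The number of calls depended on the livers fitted together. The 6 livers share 1 estimate of the spread, and when the metastasis livers were left out, 81 of 83 nuclear genes tested were called lower, against 14.2% of all genes. Leaving out metastasis liver 1 or metastasis liver 2 alone gave 81 calls each (12% of all genes each), whereas leaving out either sham liver or either PMN liver gave 0 calls (at most 0.0227% of all genes), with a median between -0.75 and -0.91. DESeq2 called 69 lower, against 6.31% of all genes.

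In metastasis livers 3 of the 85 nuclear genes were lower than in sham livers and none was higher, which is 3.53%, while 3.95% of all genes were called lower and 6.78% higher. This share of calls lies near that of all genes. By direction, however, 78 of 85 were below 0 (47.9% of all genes) and 73 had both metastasis livers below both sham livers (30% of all genes), while 2, Cox7a2l and Ndufa4l2, had both above (30.4% of all genes). At an unadjusted p under 0.05, 37 were lower (13% of all genes) and 1, Ndufa4l2, was higher (17.2%). DESeq2 called 24 lower (8.03% of all genes) and 1 higher (11.5%). The median log2 fold change was -0.44, against 0.04 over all genes. The 3 genes called were Cox6b2, Sdha and Sdhb, of which Cox6b2 and Sdhb were also called in PMN livers. The count fell to 0 without sham liver 1 or sham liver 2 (0% of all genes called lower in each). It fell to 1, called lower, without PMN liver 1 or PMN liver 2 (0.954% and 0.817% of all genes called lower). All genes thus shared these falls. The count rose to 26 without metastasis liver 1, all lower (6.93% of all genes called lower and 9.58% higher). It rose to 30 without metastasis liver 2, of which 29 were lower (15.4% of all genes) and Ndufa4l2 higher (17.3%).

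The comparisons above share their sham livers. Set directly against each other, metastasis and PMN livers differed in none of the 85 nuclear and none of the 13 mitochondrial genes by edgeR, and in 0% of all genes. At an unadjusted p under 0.05, 31 nuclear and 3 mitochondrial genes were higher in metastasis livers, against 6.99% of all genes, and none was lower (6.41%). DESeq2 called 1 nuclear gene, Ndufa4l2 (1.55% of all genes higher). Both metastasis livers lay above both PMN livers for 69 of 85 nuclear genes, as for 21.9% of all genes, and 4 were fitted below 0 (47.8%). The median log2 difference was 0.40 for nuclear and 0.65 for mitochondrial genes, against 0.03 over all genes. The absence of calls rests on metastasis liver 2, since without it 12 nuclear and 9 mitochondrial genes were called, all higher in metastasis liver 1 than in PMN livers (7.53% of all genes called higher and 9.02% lower). The 12 included the cytochrome c gene Cycs, Uqcrh, Cox5a, Cox6c and Ndufa4l2.

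**Figure D2:**
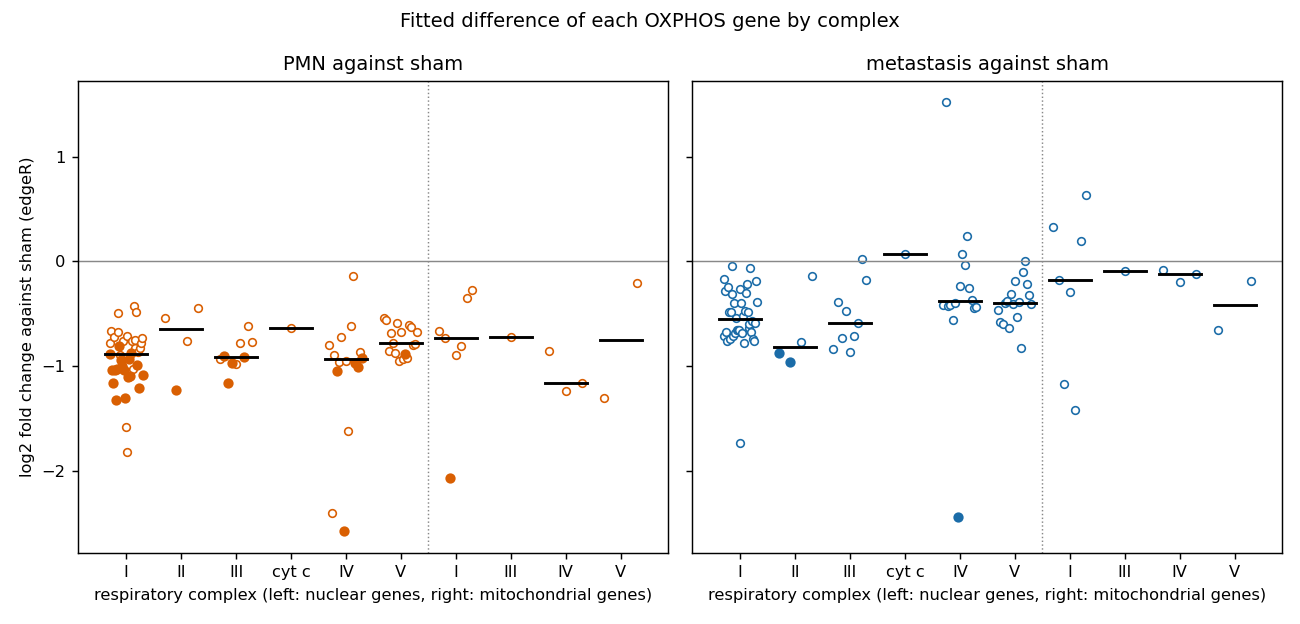
edgeR log2 fold change against sham (vertical axis) of each gene in PMN (left) and metastasis livers (right), by complex (horizontal axis; nuclear genes left of the dotted line, mitochondrial genes right of it). Filled points were called, black bars are medians of each class, and Ndufa4l2 (-0.20 and 5.92) is included in the medians but not drawn; all points in PMN livers lie below 0.

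Complex I, the NADH dehydrogenase, held most of the calls in PMN livers. Of its 38 nuclear genes 18 were lower (2.38% of all genes), with a median log2 fold change of -0.89, and all 38 had both PMN livers below both sham livers (34% of all genes). These shares of all genes hold for the counts of every complex that follows, as does 3.95% called lower in metastasis livers. Its 7 nuclear core subunits, which carry the flavin and iron-sulfur clusters, had 1 call and a median of -0.78. The 31 accessory subunits, which surround the core and are needed for its assembly and stability, had 17 calls and a median of -0.94. In metastasis livers no nuclear gene of complex I was called, 24 were lower at an unadjusted p under 0.05 (13% of all genes), and the median was -0.55.

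The accessory subunit Ndufa5 (chr6:24518662-24527690, GRCm38) had the lowest fitted value in PMN livers among the nuclear genes of complex I with a mean of at least 5 CPM. Its level was 88.0 and 95.5 CPM in sham, 37.1 and 36.1 CPM in PMN and 50.8 and 58.9 CPM in metastasis livers. The 3 groups did not overlap, and the PMN livers were lowest. The log2 fold change was -1.33 ± 0.19 (SE, adjusted p = 0.018, edgeR) in PMN and -0.74 ± 0.19 (adjusted p = 0.056, edgeR) in metastasis livers. Ndufs7 (chr10:80249105-80256794), the core subunit that holds the last iron-sulfur cluster before ubiquinone, was the only nuclear core subunit called. It stood at 78.4 and 72.9 CPM in sham, 34.6 and 31.0 CPM in PMN and 46.2 and 44.4 CPM in metastasis livers. Its log2 fold change in PMN livers was -1.21 ± 0.18 (SE, adjusted p = 0.020, edgeR).

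Other accessory subunits called in PMN livers were Ndufa3, Ndufa6, Ndufa9, Ndufa10, Ndufa12, Ndufa13, Ndufb3, Ndufb4, Ndufb6, Ndufb7, Ndufb8, Ndufb9, Ndufb10, Ndufb11, Ndufs5 and Ndufv3. Their fitted log2 fold changes lay between -1.31 (Ndufb4) and -0.81 (Ndufa9). Ndufb9, the most abundant nuclear gene of complex I by TPM, had 600 and 583 TPM in sham, 279 and 288 TPM in PMN and 357 and 334 TPM in metastasis livers. Ndufs1, the large iron-sulfur subunit of the core, had the smallest fitted change in PMN livers among the nuclear genes of complex I (log2 fold change -0.43, adjusted p = 0.206, edgeR). It had 98.7 and 96.2 CPM in sham, 73.9 and 71.0 CPM in PMN and 75.2 and 63.8 CPM in metastasis livers. Reads of some members may be shared with a neighbor on the other strand, because strand use in counting is not stated: 39.0% of the exon bases of Ndufb6 and 29.98% of those of Ndufa13 overlap another gene. Ndufb4 has the near-identical copies Ndufb4b and Ndufb4c, and its reads may be divided among them.

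Complex II, succinate dehydrogenase, is the only complex that also works in the tricarboxylic acid cycle and has no mitochondrially encoded subunit. It was the one complex with a lower median in metastasis (-0.82) than in PMN livers (-0.65), over 4 genes. Compared directly, 2 of the 4 were lower and 2 higher in metastasis than in PMN livers, with a median log2 difference of 0.13. Their summed TPM overlapped (754 and 765 in PMN, 756 and 754 in metastasis livers), so that complex II as a whole was not lower in metastasis than in PMN livers. Sdhb (chr4:140961271-140979198), its iron-sulfur subunit, was called in both. It stood at 261 and 236 CPM in sham, 108 and 104 CPM in PMN and 136 and 119 CPM in metastasis livers. All livers of tumor-bearing mice lay below both sham livers, with log2 fold changes of -1.23 ± 0.20 (SE, adjusted p = 0.022, edgeR) and -0.96 ± 0.20 (SE, adjusted p = 0.032, edgeR).

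Sdha, the flavoprotein that oxidizes succinate, had 429 and 403 CPM in sham, 286 and 287 CPM in PMN and 224 and 231 CPM in metastasis livers. It was the only one of the 85 nuclear genes with both metastasis livers below both PMN livers (21.5% of all genes), and was called in metastasis (-0.87 ± 0.19, adjusted p = 0.038, edgeR) but not in PMN livers (-0.54 ± 0.19, adjusted p = 0.133, edgeR). The direct difference between these groups was -0.33 (adjusted p = 0.466, edgeR). Of the membrane anchors, Sdhc had adjusted p-values of 0.063 and 0.050 (edgeR, PMN and metastasis), just above the threshold in both, and Sdhd differed least, with 214 and 216 CPM in sham, 167 and 148 CPM in PMN and 200 and 192 CPM in metastasis livers.

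Complex III, which passes electrons from ubiquinol to cytochrome c, had 9 nuclear genes, of which 4 were lower in PMN livers (median -0.92) and none in metastasis livers (median -0.58). Those called were the Rieske iron-sulfur protein Uqcrfs1 and the small subunits Uqcr10, Uqcr11 and Uqcrb. Uqcr11 had 106 and 102 CPM in sham, 50.9 and 42.3 CPM in PMN and 56.8 and 68.4 CPM in metastasis livers (log2 fold change -1.16 ± 0.21 in PMN, adjusted p = 0.030, edgeR). Cyc1, cytochrome c1, was not called (-0.93 in PMN, adjusted p = 0.059, edgeR). Uqcrh, the hinge subunit and the most abundant nuclear gene of complex III by TPM, stood apart in metastasis livers. It had 190 and 223 CPM in sham, 137 and 132 CPM in PMN and 226 and 194 CPM in metastasis livers, so that sham and metastasis livers overlapped. Cycs, the somatic cytochrome c, had a similar order, with 140 and 146 CPM in sham, 101 and 83.1 CPM in PMN and 166 and 134 CPM in metastasis livers, and was not called in either comparison.

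Complex IV, cytochrome c oxidase, had 16 nuclear genes, of which 5 were lower in PMN livers (Cox5b, Cox6b2, Cox7b, Cox7c and Ndufa4; median -0.94) and 1 in metastasis livers (Cox6b2; median -0.38). Cox6c, its most abundant nuclear gene by TPM, was not called. It had 1290 and 1336 TPM in sham, 687 and 501 TPM in PMN and 957 and 858 TPM in metastasis livers.

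Several complex IV subunits exist as isoforms with different tissue patterns. Cox6b2 (chr7:4751792-4753094), known as the testis isoform of subunit 6B, had the lowest fitted value of all nuclear genes in both comparisons. It stood at 12.7 and 11.7 CPM in sham, 2.01 and 2.07 CPM in PMN and 2.77 and 1.72 CPM in metastasis livers. The tumor groups overlapped each other and lay far below the sham livers, with log2 fold changes of -2.58 ± 0.32 (SE, adjusted p = 0.013, edgeR) and -2.44 ± 0.32 (SE, adjusted p = 0.011, edgeR). Its ubiquitous partner Cox6b1 had 220 and 236 CPM in sham, 140 and 137 CPM in PMN and 175 and 171 CPM in metastasis livers and was not called (-0.72 and -0.40, adjusted p = 0.068 and 0.2002, edgeR).

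Ndufa4l2, a paralog of Ndufa4 known to respond to hypoxia, was high in a single liver. It had 12 and 8 counts in sham, 11 and 4 in PMN livers, and 984 and 15 in metastasis livers 1 and 2, or 28.7 and 0.368 CPM in the latter. The fitted log2 fold change of 5.92 ± 1.81 was not called (adjusted p = 0.086, edgeR). The minor isoform Cox4i2 had 44 and 2 counts in metastasis livers 1 and 2, 15 and 4 in sham and 3 and 0 in PMN livers, so that metastasis liver 1 again stood highest. Cell type markers also differed between the metastasis livers, in both directions. Of 10 hepatocyte markers 7 were higher in metastasis liver 1 than in metastasis liver 2 (189045 and 140937 CPM summed), and of 6 cholangiocyte and epithelial markers 3. All 5 B cell and 6 of 8 T and NK cell markers were lower. In metastasis liver 1, 9 of 10 neutrophil, 8 of 8 erythroid and 6 of 8 endothelial markers were higher than in metastasis liver 2 (Lyve1 112 and 14.2 CPM, but Clec4g 36.9 and 69.97 CPM), whereas 8 of 10 monocyte and macrophage and 8 of 9 stellate cell and fibroblast markers were lower (393 and 447 CPM summed for the latter). Of the 2 adipose markers Fabp4 was higher (145 and 28.6 CPM) and Cidea lower (2.48 and 3.29 CPM). The part of these cells in the values of that liver was not tested.

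Cox7a2l, a factor that joins complexes III and IV into supercomplexes, was the member nearest to sham in PMN livers. It had 86.0 and 91.4 CPM in sham, 78.9 and 82.2 CPM in PMN and 107 and 102 CPM in metastasis livers. Neither difference was called (-0.14 and 0.24, adjusted p = 0.664 and 0.412, edgeR), and the sign in metastasis livers turned when libraries were scaled by total counts or when TPM was used. The liver isoform Cox7a2 was lower in both PMN livers (77.9 and 65.5 CPM) than in sham (104 and 115 CPM), and in metastasis livers (112 and 103 CPM) it overlapped with sham. The heart and muscle isoform Cox7a1 was below 3 CPM in all livers. Cox6a2, Cox7b2, Cox8b and Cox8c are not listed in the table and were not analysed here.

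**Figure D3:**
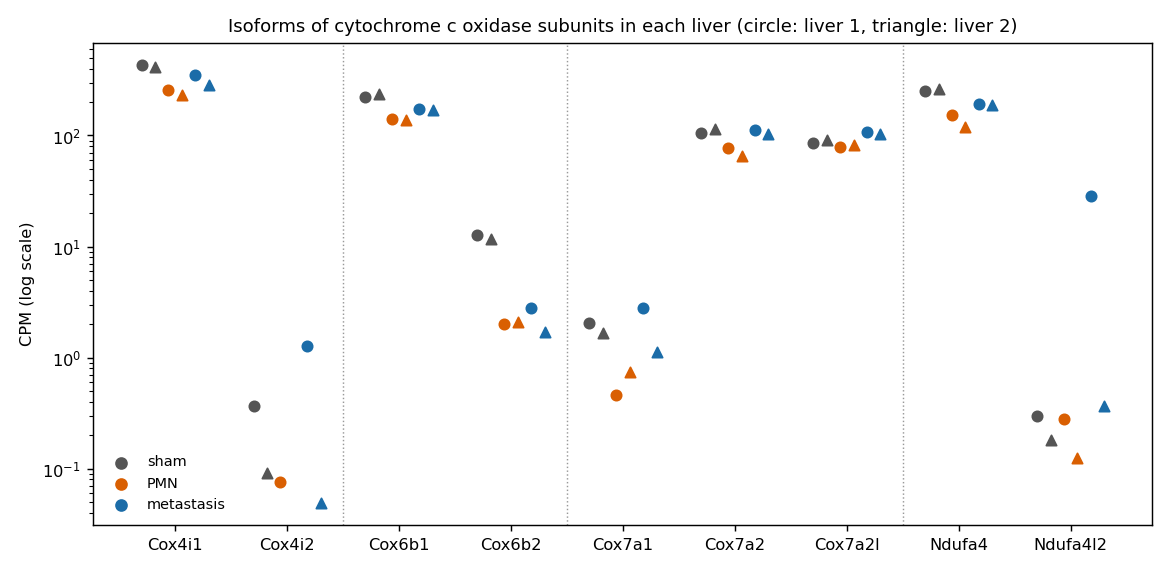
CPM on a log axis (vertical) of paired isoforms of complex IV subunits (horizontal axis, families separated by dotted lines) in each of the 6 livers, with a count of 0 (Cox4i2 in PMN liver 2) not drawn. Cox6b2 falls from 12.7 and 11.7 CPM in sham to 2.77 CPM or less in the other livers, and Ndufa4l2 reaches 28.7 CPM in metastasis liver 1 only.

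Complex V, the ATP synthase, had the lowest share of calls among the 5 complexes in PMN livers. Of its 17 nuclear genes 1 was lower in PMN livers (Atp5j2, a small membrane subunit, -0.88, adjusted p = 0.044, edgeR) and none in metastasis livers, yet all 17 had both PMN livers below both sham livers, and the median was -0.78 (-0.39 in metastasis livers). The 5 subunits of the catalytic head had a median of -0.69 in PMN livers, the 3 genes of the c ring -0.88 and the 4 genes of the peripheral stalk -0.73. Atp5b, the catalytic beta subunit and the most abundant nuclear gene of complex V by TPM, had 1144 and 1123 CPM in sham, 810 and 728 CPM in PMN and 806 and 715 CPM in metastasis livers. Its log2 fold change was nearly equal in both groups (-0.56 and -0.58), without passing the test in either. Atp5g1, Atp5g2 and Atp5g3 encode the same mature c subunit. In PMN livers Atp5g1 fitted at -0.88 (adjusted p = 0.050, edgeR, just above the threshold), Atp5g3 at -0.95 and Atp5g2 at -0.59.

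**Figure D4:**
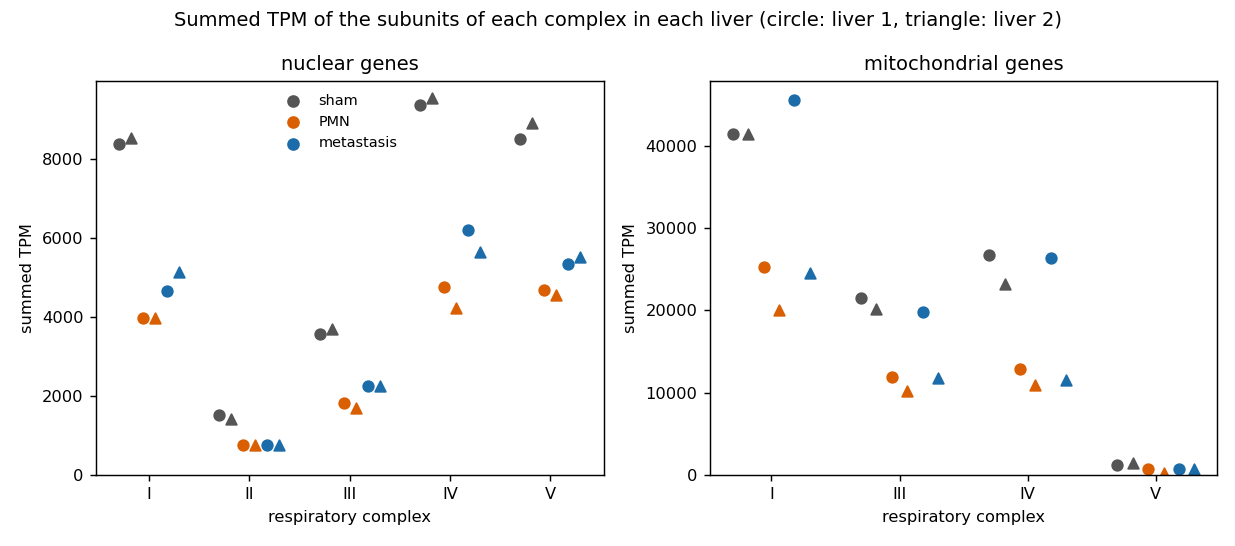
Summed TPM (vertical axis, from 0) of nuclear (left) and mitochondrial genes (right) of each complex (horizontal axis) in each liver, colored by group. Nuclear sums of every complex lie below sham in all 4 livers of tumor-bearing mice, whereas metastasis liver 1 lies near sham and metastasis liver 2 near the PMN livers for the mitochondrial genes of complexes I, III and IV.

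The promoters of nuclear members were searched for motifs of factors known to act on respiratory genes. RefSeq promoters (250 bases before to 50 after the start, GRCm38.p6) were matched for 69 of the 85 nuclear genes and were searched on both strands. An NRF1 site pair (GCGC, any 2 bases, GCGC) was found in 26.1% of the 69 and in 6.997% of all 27025 genes with a promoter. The full NRF1 motif, which is that pair with AT in the middle, was found in 7.25% and 1.07%, the ETS/GABP motif CCGGAAG in 24.6% and 9.93%, the YY1 motif AAGATGGCG in 10.1% and 1.64%, and the ERRA motif TCAAGGTCA in 2.90% and 0.466%. Among the 27 members with a promoter that were called lower in PMN livers, the NRF1 site pair and CCGGAAG were found in 14.8% each and AAGATGGCG in 11.1%, and the full NRF1 and ERRA motifs in 0. The shares are descriptions, and a match is not a binding site. The following promoters are shown because these genes had the lowest adjusted p-values among the nuclear genes, with matched letters in capitals. RefSeq gives 2 starts for Ndufa5, and the one at the gene start given above is printed; both windows hold the same match. The RefSeq start of Ndufs7 lies inside the gene interval given above. The promoter of Ndufa5 (chr6:24527641-24527940, minus strand) holds the NRF1 site pair, that of Ndufs7 (chr10:80249199-80249498, plus strand) AAGATGGCG, that of Sdhb (chr4:140961021-140961320, plus strand) CCGGAAG, and that of Cox6b2 (chr7:4753045-4753344, minus strand) none of these motifs.
Ndufa5: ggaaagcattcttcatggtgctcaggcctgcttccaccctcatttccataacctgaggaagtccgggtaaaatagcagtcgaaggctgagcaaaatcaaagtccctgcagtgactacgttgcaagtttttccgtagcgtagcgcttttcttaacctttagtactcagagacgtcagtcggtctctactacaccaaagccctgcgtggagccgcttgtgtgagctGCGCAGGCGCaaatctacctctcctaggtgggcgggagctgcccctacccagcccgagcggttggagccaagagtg
Ndufs7: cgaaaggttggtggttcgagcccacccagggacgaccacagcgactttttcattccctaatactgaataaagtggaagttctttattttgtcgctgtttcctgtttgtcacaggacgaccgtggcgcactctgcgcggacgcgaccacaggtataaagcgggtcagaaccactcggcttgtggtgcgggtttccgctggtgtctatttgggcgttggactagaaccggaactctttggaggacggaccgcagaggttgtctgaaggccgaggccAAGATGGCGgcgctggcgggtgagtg
Sdhb: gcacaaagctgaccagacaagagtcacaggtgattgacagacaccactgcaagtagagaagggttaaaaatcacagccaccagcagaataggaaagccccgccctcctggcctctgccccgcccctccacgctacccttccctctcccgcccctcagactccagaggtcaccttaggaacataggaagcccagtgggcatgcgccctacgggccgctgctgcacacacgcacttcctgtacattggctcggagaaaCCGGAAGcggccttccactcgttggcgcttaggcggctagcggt
Cox6b2: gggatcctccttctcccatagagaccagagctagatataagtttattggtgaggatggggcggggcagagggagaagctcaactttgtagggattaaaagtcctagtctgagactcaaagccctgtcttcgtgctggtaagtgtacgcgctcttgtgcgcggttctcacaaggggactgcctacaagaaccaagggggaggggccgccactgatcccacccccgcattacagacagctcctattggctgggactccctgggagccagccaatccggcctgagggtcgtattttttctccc

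The mitochondrially encoded genes, which code for core subunits of complexes I, III and IV and for membrane subunits of complex V, took 5.60% and 5.34% of all counts in sham, 2.93% and 2.45% in PMN and 5.62% and 3.02% in metastasis livers. PMN livers lay below sham livers, while the metastasis livers differed from each other, 1 near sham and 1 near PMN. An exact permutation test of 2 against 2 livers cannot go below p = 0.333 (two-sided), the value found for PMN, and gave p = 1 for metastasis livers. Per nuclear OXPHOS count there were 3.73 and 3.49 mitochondrial counts in sham, 3.93 and 3.37 in PMN and 6.20 and 3.29 in metastasis livers, and only metastasis liver 1 lay outside the range of the other livers on the high side. Mitochondrial rRNA took 0.237% and 0.236% of counts in sham, 0.2002% and 0.172% in PMN and 0.0849% and 0.233% in metastasis livers, so that metastasis liver 1 was lowest for rRNA. Per mitochondrial mRNA count there were 0.0423 and 0.0442 rRNA counts in sham, 0.0685 and 0.0700 in PMN and 0.0151 and 0.0771 in metastasis livers. Its part in the mitochondrial result was not tested.

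In PMN livers all 13 mitochondrial genes were fitted below 0 (49.4% of all genes) and 12 had both PMN livers below both sham livers (34% of all genes). Only 1, ND3, was called lower (2.38% of all genes). This call was lost without sham liver 1, sham liver 2, PMN liver 1 or PMN liver 2, and 8 genes were called without metastasis liver 1 or metastasis liver 2 (12% of all genes in each). The median log2 fold change was -0.81. In metastasis livers 10 of 13 were below 0 (47.9% of all genes) and 3 had both metastasis livers below both sham livers (30% of all genes). None was called by edgeR and the median was -0.18. An unadjusted p under 0.05 was found for 2 of 13 (13% of all genes lower), and DESeq2 called 1 lower (8.03% of all genes), shares near those of all genes. This median was -0.72 without metastasis liver 1 and 0.26 without metastasis liver 2, so that its sign rests on 1 liver. The calls turned likewise, with 6 genes lower without metastasis liver 1 (6.93% of all genes) and 3 higher, ND1, ND5 and ND6, without metastasis liver 2 (17.3%).

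Some of these genes have near-identical copies in the nuclear genome, and only uniquely aligned reads were counted. Of the 100-base windows of ND3, ND4L, COX2, COX3 and ATP6, between 97.6% and 99.9% were also found in pseudogene transcripts on chromosome 1 (GENCODE M21, GRCm38; for ND3 the pseudogene Gm28438 at chr1:24612775-24613119). These 5 genes had 132 to 1277 TPM in sham livers. ND4 and COX1 shared 60.8% and 30.8% of their windows. ND1, ND5, ND6, CYTB and ATP8 shared none with an annotated transcript, and ND2 shared 3.19%. How many reads of these genes were left out of the counts was not measured, so TPM differences between genes of unequal share are not comparisons of RNA level alone. ATP8, which shared none, had the lowest TPM of the 13.

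**Figure D5:**
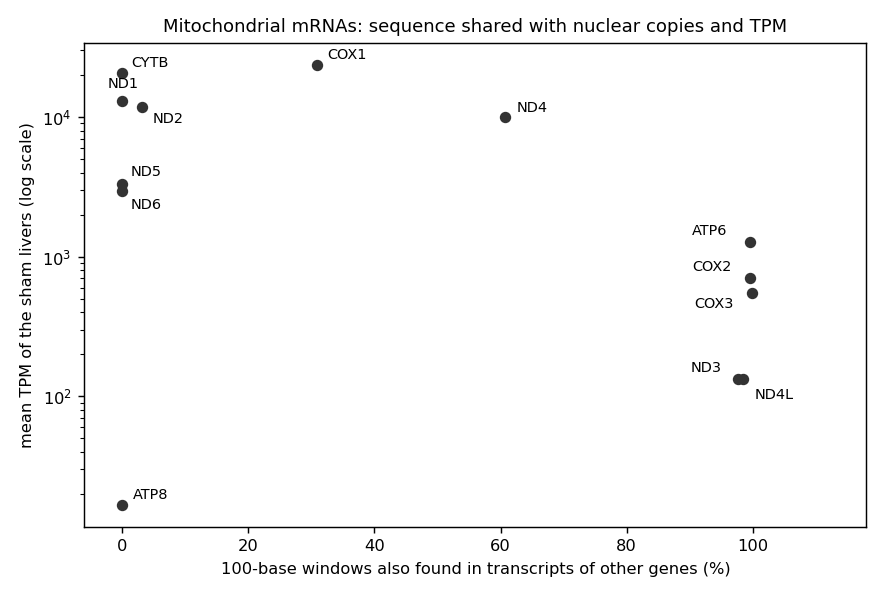
Mean TPM of the sham livers on a log axis (vertical) against the share of 100-base windows of each mitochondrial mRNA that also occur in transcripts of other genes (horizontal, percent). The 5 genes with shares of 97.6% or more lie between 132 and 1277 TPM, below all others except ATP8.

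By that share, the 6 mitochondrial genes with under 5% of windows shared had a median log2 fold change of -0.51 in PMN and 0.05 in metastasis livers. ND4 and COX1 had -0.87 and -0.19, and the 5 genes with 90% or more had -1.24 and -0.65. The 3 classes were formed after the values had been seen and were not tested. The call of ND3, a small core subunit of complex I, falls in the last class. It had 12.3 and 29.0 CPM in sham, 4.81 and 5.04 CPM in PMN and 10.8 and 7.58 CPM in metastasis livers, and a log2 fold change of -2.07 ± 0.43 in PMN livers (SE, adjusted p = 0.043, edgeR).

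The abundant genes differed between the metastasis livers. CYTB, the cytochrome b of complex III, had 10940 and 10271 CPM in sham, 7158 and 5733 CPM in PMN and 12820 and 7118 CPM in metastasis livers 1 and 2. ND1, at the ubiquinone site of complex I, had 5724 and 5424 CPM in sham, 4167 and 2846 CPM in PMN and 9471 and 4487 CPM in metastasis livers. Both were lower in each PMN liver than in sham, and in both metastasis liver 1 was above and metastasis liver 2 below the sham livers. ND6, the only protein gene on the light strand, had 674 and 682 CPM in sham, 669 and 457 CPM in PMN and 1466 and 640 CPM in metastasis livers. COX1, the catalytic subunit of complex IV and the most abundant member of all by TPM, had 17482 and 15139 CPM in sham, 10125 and 7884 CPM in PMN and 22086 and 8832 CPM in metastasis livers. None of these 4 genes was called in either comparison.

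Among the other abundant core subunits of complex I, ND2 and ND5 also had metastasis liver 1 above and metastasis liver 2 below the sham livers. ND2 had 5433 and 5533 CPM in sham, 3706 and 2884 CPM in PMN and 6393 and 3319 CPM in metastasis livers. ND5 had 2820 and 2601 CPM in sham, 2432 and 1829 CPM in PMN and 4577 and 1621 CPM in metastasis livers. ND4 had 5906 and 6358 CPM in sham, 3644 and 2977 CPM in PMN and 6018 and 3995 CPM in metastasis livers, so that its metastasis liver 1 lay within the sham range rather than above it. Among the genes with shared sequence, COX2 had 223 and 205 CPM in sham, 83.6 and 97.7 CPM in PMN and 246 and 127 CPM in metastasis livers. COX3 had 177 and 206 CPM in sham, 62.5 and 108 CPM in PMN and 229 and 122 CPM in metastasis livers. ATP6, the proton channel subunit of complex V, had 344 and 430 CPM in sham, 238 and 75.1 CPM in PMN and 259 and 234 CPM in metastasis livers. For COX2 and COX3, core subunits of complex IV, metastasis liver 1 was again the highest of all, whereas for ATP6 both metastasis livers lay below sham. ND4L had 3.95 to 18.9 CPM and ATP8 0.826 to 1.84 CPM over the 6 livers.

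Genes that build and regulate the complexes were read from lists. The all-gene shares to read these counts against are 2.38% lower in PMN and 3.95% lower in metastasis livers. Of 47 assembly factors 5 were lower in PMN livers (10.6%; Cox17, Ecsit, Ndufaf1, Ndufaf2 and Uqcc3; median -0.65) and 2 in metastasis livers (Ecsit and Ndufaf1; median -0.40), the latter 4.26%, a share near that of all genes. Ecsit, needed to assemble complex I, had 33.4 and 31.4 CPM in sham, 12.2 and 13.7 CPM in PMN and 15.7 and 15.0 CPM in metastasis livers. Of 81 mitochondrial ribosomal protein genes 9 and 1 were lower (11.1% and 1.23%, the second below that of all genes), with medians of -0.70 and -0.46. Of 34 genes for mitochondrial DNA and RNA maintenance 4 and 3 were lower (11.8% and 8.82%, medians -0.61 and -0.43), among them the polymerase subunit Polg2 in both. No gene of these 3 lists was higher. Of 18 tricarboxylic acid cycle enzymes 3 and 3 were lower (16.7% each; Idh2, Idh3b and Idh3g, and Idh2, Idh3b and Suclg2; medians -0.61 and -0.37). The 16 carriers tested had medians of -0.55 and -0.24, with 13 below 0 in PMN livers and none called lower. Slc25a4, an ADP/ATP carrier, was higher in metastasis livers (4.804 and 4.754 CPM in sham, 12.3 and 7.64 CPM in PMN and 24.1 and 24.9 CPM in metastasis livers, log2 fold change 2.36, adjusted p = 0.0091, edgeR). The uncoupling protein Ucp2 was higher in both, with 9.81 and 9.87 CPM in sham, 43.9 and 50.8 CPM in PMN and 71.4 and 35.5 CPM in metastasis livers.

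The 14 regulators of respiratory genes lay on both sides of 0, from -1.84 to 1.48 in PMN and from -2.31 to 0.87 in metastasis livers (medians 0.00 and -0.12). Of them 1 was lower in PMN (7.14%, against 2.38% of all genes) and 3 in metastasis livers (21.4%, against 3.95%), and none was higher. Esrrg, an estrogen-related receptor, was lower in both, with 4.90 and 5.14 CPM in sham, 1.55 and 1.24 CPM in PMN and 0.962 and 1.06 CPM in metastasis livers (log2 fold change -1.84 and -2.31, adjusted p = 0.032 and 0.015, edgeR). Ppara and Sirt3 were lower in metastasis livers (-1.38 and -0.996, adjusted p = 0.030 and 0.048, edgeR). The coactivator Ppargc1a had 18.7 and 21.7 CPM in sham, 80.4 and 32.2 CPM in PMN and 46.3 and 27.3 CPM in metastasis livers, higher in all livers of tumor-bearing mice but not called (adjusted p = 0.105 and 0.257, edgeR). Its paralog Ppargc1b went the other way, with 10.7 and 11.8 CPM in sham, 3.79 and 3.03 CPM in PMN and 10.1 and 2.87 CPM in metastasis livers, and was not called either (log2 fold change -1.72 and -0.80, adjusted p = 0.113 and 0.367, edgeR). Nrf1, Gabpa and Tfam, which drive nuclear and mitochondrial OXPHOS genes, were not called, with log2 fold changes in PMN livers of 0.26, 0.03 and -0.51.

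The pseudogenes were kept apart from the genes. All 10 had both PMN livers below both sham livers (34% of all genes), with a median log2 fold change of -1.07. Of them 1, Ndufa12-ps, was called lower (-1.16, adjusted p = 0.038, edgeR), against 2.38% of all genes. In metastasis livers 9 were below 0 (47.9% of all genes) and 6 had both livers below both sham livers (30% of all genes). None was called there, and the median was -0.41. Because they resemble their parent genes, their counts may hold reads of Ndufa12 and others.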

How the data were processed

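Whole liver RNA from 6 mice was analysed. Libraries were made from poly-T selected RNA with a NEBNext Ultra kit. The authors deposited raw counts per gene, and per their processing notes and methods the reads were aligned to mm10 with HISAT2 2.1.0 and the uniquely aligned reads counted on exons with featureCounts (Subread 2.0.6). They also deposited TPM values, calculated from those counts and gene lengths. The gene annotation and strand setting are not given in the sources used here.

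The counts were tested with edgeR 4.0.16 (quasi-likelihood, TMM, filterByExpr with a count minimum of 10, 1 fit over 6 livers) in R 4.3.3, with adjustment over the 16370 genes tested. Calls are adjusted p-values under 0.05. CPM values are counts on TMM-scaled totals, and TPM was used to compare levels between genes. The procedure was also run on simulated data, with a dispersion set below the common dispersion of 0.114 estimated for these livers. That run therefore does not measure power or false calls in these data. Alternatives were DESeq2 1.42.0, limma 3.58.1 on log2(TPM + 1) and log2(TPM + 0.1), other filters, scalings and spread estimates, a replicate block, and each liver left out. Sequence windows and promoters were searched with Python 3.11.15. The members and lists were chosen with earlier results of these data known.

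Named were the mitochondrial genes, the most abundant gene of each complex, called members (or examples of them), the largest and smallest fitted changes per complex at a mean of at least 5 CPM, the isoforms and the main regulators. The other genes named were chosen after their values were seen, and not every value this covers is reported. Livers had 32838321 to 43368309 counts, so that 3 counts stand for 0.0679 to 0.0928 CPM.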

Additional observations from a re-analysis of the deposited data

Results flagged for a closer look

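Cox7a2l differed in direction between the tumor groups. Both PMN livers lay below and both metastasis livers above both sham livers, and the log2 difference of metastasis from PMN livers was 0.38. The edgeR adjusted p of that difference was 0.410, so it did not pass the test.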

How the results depend on the processing

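The direction of the nuclear result held in PMN livers under all 17 alternatives, with a median log2 fold change below 0 in each, while the number of calls did not hold. Lower calls among nuclear genes in PMN livers were 69 with DESeq2, 81 with only the 2 groups compared, 69 with library size without TMM, 70 with limma on log2(TPM + 1) and 71 on log2(TPM + 0.1), and 0 to 81 with each liver left out. The share of all genes called lower moved with the setting too, being 6.31%, 14.2%, 4.89%, 5.47% and 5.44% in that order. For mitochondrial genes they were 4, 8, 3, 1 and 2, and 0 to 8. In metastasis livers nuclear calls in either direction were 25 with DESeq2, 5 with at least 10 counts in every liver, 1 with only the 2 groups compared, 28 without TMM, 6 with TMM without the 100 most abundant genes, 5 with a robust dispersion, 42 and 43 with limma on TPM, and 0 to 30 with each liver left out. The shares of all genes called lower were 8.03%, 4.79%, 0.734%, 6.81%, 4.28%, 4.05%, 9.49% and 9.02% in that order. Those called higher were 11.5%, 7.22%, 1.75%, 5.12%, 6.59%, 6.78%, 4.18% and 4.91%. Apart from fits with a liver left out, only DESeq2 called a nuclear gene higher, Ndufa4l2. Mitochondrial calls there were 1 with DESeq2, without TMM and with limma on TPM, and 0 to 6 with each liver left out. Between metastasis and PMN livers DESeq2 called 1 nuclear gene, and leaving out each liver gave 0 to 12 nuclear and 0 to 9 mitochondrial calls.

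Scaling moved the medians. Without TMM the median of all genes was -0.25 in PMN and -0.23 in metastasis livers, by construction of the totals, and the nuclear median was -1.13 and -0.73 and the mitochondrial median -1.08 in PMN livers. On TPM the nuclear medians were -1.05 and -1.06 in PMN (pseudocounts 1 and 0.1), -0.746 and -0.748 in metastasis livers and 0.288 between the groups, and the mitochondrial medians -1.04 and -1.05 in PMN livers. The nuclear median in metastasis livers was -0.43 with only the 2 groups and -0.47 with TMM without the top 100 genes. With each liver left out, the nuclear medians ran from -0.91 to -0.75 in PMN, from -0.50 to -0.42 in metastasis livers and from 0.34 to 0.48 between them, and the mitochondrial medians from -0.97 to -0.54, from -0.72 to 0.26 and from 0.18 to 1.10. A liver left alone in its group was assumed to vary like the others.

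Single values turned sign mainly in metastasis livers. The mitochondrial share of counts differed from sham by -1.15 percentage points, by 0.535 without the 100 most abundant genes, and by -2.45 to 0.15 with each liver left out. ND5 was at -0.12 without TMM and at -0.29 with both TPM settings, ND1 at -0.071 with both, and Cox7a2l at -0.035 without TMM and -0.056 with both. With each liver left out, the log2 fold changes ran from -0.57 to 0.27 for CYTB, -0.079 to 1.11 for ND6, -0.74 to 0.76 for ND5, -0.65 to 0.26 for COX3, -0.85 to 0.28 for ATP8, -0.74 to 0.20 for COX2, -0.88 to 0.44 for COX1, -0.72 to 0.22 for ND2 and -0.31 to 0.77 for ND1. In PMN livers they ran from -0.57 to 0.0051 for ND6, -0.57 to 0.11 for ATP8 and -0.92 to 0.26 for Ndufa4l2. The causes were not tested.

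The replicate numbers do not pair the livers, since the deviations of same-numbered livers correlated at -0.03, 0.08 and 0.04. With the replicate block, nuclear calls in PMN livers were 13 (1.58% of all genes called lower) and mitochondrial calls 0, and mitochondrial calls in metastasis livers were 1. With 2 livers per group, no permutation p can fall below 0.333.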
